A study of Mus musculus with 16 samples.

Results

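The genes described here encode RNA polymerase II, its general transcription factors and Mediator in mouse 2-cell embryos. They are the protein-coding genes whose GENCODE symbol is that of a polymerase II subunit (Polr2a to Polr2m), a numbered Mediator subunit, a numbered TBP-associated factor (TAF), a subunit of TFIIA, TFIIB, TFIIE, TFIIF or TFIIH named Gtf2, Tbp or Tbpl2. The rule gave 74 genes of 49585 identifiers in the tables, and all 74 were detected and carried an adjusted p in all 3 comparisons. They divide into 13 polymerase subunits, 26 general factor genes, 5 relatives of TBP or TAFs, and 30 Mediator subunits.

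Polyadenylated RNA was sequenced from 3 groups of embryos. Those of the knockdown (6 libraries) had received dsSuv39h2, a double-stranded RNA that targets the Suv39h2 message, those of the LacZ control (6 libraries) had received dsLacZ, directed at an E. coli gene, and the last (4 libraries) were non-injected. In all groups the paternal strain was DBA, the maternal one an F1 between C57BL/6J and CBA/H, and the culture medium KSOM. Suv39h2 encodes a histone methyltransferase that trimethylates lysine 9 of histone H3, and the design asks how embryos with less of its messenger RNA differ from injected and untouched ones. The design text speaks of pools of 5 embryos per library, whereas the extraction label speaks of a single embryo, and a treatment label names Suv39h1 messenger RNA, which none of the groups received by their other labels. Every fold change, standard error and adjusted p is that of the authors' deposited table of the comparison, made with DESeq2, and the fold changes are shrunken towards 0. The tables give a mean over all libraries and differences between groups, so no level per library or per group is shown, the depth is unknown, and p-values measure the spread between these libraries, whose separate origin is not stated.

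Transcription of messenger RNA begins when the general factors assemble at a promoter and load RNA polymerase II. TFIID, built of the TATA-binding protein TBP and its TAFs, recognises the promoter. TFIIA and TFIIB stabilise it and bridge to the polymerase, TFIIF escorts the polymerase, and TFIIE and TFIIH open the DNA and phosphorylate the polymerase tail. Mediator carries signals from enhancer-bound activators to this assembly. In the mouse the main wave of embryonic transcription starts at the 2-cell stage, while messages laid down in the oocyte are being cleared. Tbpl2 encodes a TBP relative that replaces TBP in growing mouse oocytes.

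The labelled stage and the knockdown were checked in the same tables. Suv39h2 was at -1.95 ± 0.28 (standard error) on the log2 scale in knockdown over LacZ control in the authors' deposited table, with an adjusted p of 4.72e-08. All 6 markers of the 2-cell stage were present, with mean normalized counts between 114.4 and 2987 and a median of 593.4 in the authors' deposited table. The 6 oocyte markers were present as well, between 38.4 and 8077 with a higher median of 2419. The 6 sperm transcripts had mean counts of at most 7.78 there, and the 8 cumulus and granulosa markers at most 16.1, with 2 of them, Inhba and Lhcgr, at 0.

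The promoters of a few members are shown because the Tbpl2 promoter is poor in CpG beside those of Tbp and most of the set, and because these genes include both directions of change. Each line is the 100 bases before the start annotated by RefSeq on GRCm38.p6, read 5′ to 3′ on the gene's strand, with every CpG dinucleotide in capitals. Tbpl2 and Tbp are the oocyte and general forms of the TATA-binding protein, Gtf2f2 had the largest fall of the set in knockdown against non-injected embryos, Med31 was the member lower in knockdown than in LacZ control, and Med29 fell where Med28 and Med30, of the same joint of Mediator, rose.
Tbpl2: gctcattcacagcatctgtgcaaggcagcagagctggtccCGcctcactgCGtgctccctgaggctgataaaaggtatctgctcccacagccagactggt
Tbp: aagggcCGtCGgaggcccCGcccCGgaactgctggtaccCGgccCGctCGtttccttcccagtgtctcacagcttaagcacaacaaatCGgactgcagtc
Gtf2f2: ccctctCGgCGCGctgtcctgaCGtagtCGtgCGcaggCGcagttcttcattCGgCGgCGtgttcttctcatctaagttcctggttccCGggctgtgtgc
Med31: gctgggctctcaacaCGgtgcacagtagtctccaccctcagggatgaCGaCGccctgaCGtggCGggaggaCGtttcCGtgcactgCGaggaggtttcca
Med29: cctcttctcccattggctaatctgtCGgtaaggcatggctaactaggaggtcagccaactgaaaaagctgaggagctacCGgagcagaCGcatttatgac
These stretches lie at chr2:24096596-24096695 on the minus strand (Tbpl2), chr17:15499788-15499887 on the plus strand (Tbp), chr14:76010866-76010965 on the minus strand (Gtf2f2), chr11:72215593-72215692 on the minus strand (Med31) and chr7:28392691-28392790 on the minus strand (Med29). They hold 2 CpGs in Tbpl2, 8 in Tbp, 11 in Gtf2f2, 8 in Med31 and 3 in Med29.

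RefSeq windows of 300 bases, from 250 before to 50 after the start, were found for 64 of the 74 genes, which had 76 windows in all. Their median ratio of observed to expected CpG was 0.858, against 0.384 over all 32851 windows. The Tbpl2 window stood at 0.213 and that of Tbp at 0.803. The GC box GGGCGG, a site of Sp1-type factors, was found on either strand in 49 member windows (64.5%), against 35.7% of all windows. The letters CCGGAAG, the core bound by ETS factors, were in 22 (28.9%), against 8.86% of all windows, and the E box CACGTG was in 14 (18.4%), against 7.15%. The TATA box letters TATAAA were in 12 (15.8%), against 13.6% of all windows, and were in neither the Tbp nor the Tbpl2 window. Windows of the genes lower in knockdown than in non-injected embryos held TATAAA in 1 of 16 and GGGCGG in 12 of 16, and the 56 windows of the genes not called held them in 9 and in 37. The genes that were higher had 4 windows, with TATAAA in 2 and GGGCGG in 0. CCGGAAG was in 2 of the 16 lower, 18 of the 56 not called and 2 of the 4 higher windows. CACGTG was in 5, 7 and 2 of them, in the same order. Of the called genes, Med30 and Polr2k are not among those with a window. A match of letters is a description and not a binding site, its absence says only that the letters are not in the window, and windows of 1 gene can overlap.

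Levels over all libraries spanned a wide range within each complex, as the plot of mean count per kilobase shows. The mean normalized count of the authors' deposited table was divided by the length of the principal transcript, to set genes of unlike length side by side. This takes transcripts as evenly covered by reads, which was not tested. The lengths differ much, with 646 bases for Polr2j and 6740 for Polr2a. Over the 74 genes the median was 248.9 counts per kb, against 14.3 over 19016 protein-coding genes with a count. Of the subcomplexes plotted, the polymerase had the broadest range: Polr2j, the RPB11 subunit, stood highest of the set at 5638 counts per kb, and Polr2a, the largest subunit, which carries the tail that is phosphorylated during transcription, stood lowest of the polymerase at 16.7 counts per kb. In Mediator the 4 subunits Med27 to Med30, which lie where head and tail meet, had a median of 987.4 counts per kb, the kinase module a median of 23.9 and the tail 82.5. Med12, which activates the Mediator kinase, was the lowest of the 74 at 7.82 counts per kb. Each of these is a mean over libraries of all groups, with no spread in the tables.

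**Figure D1:**
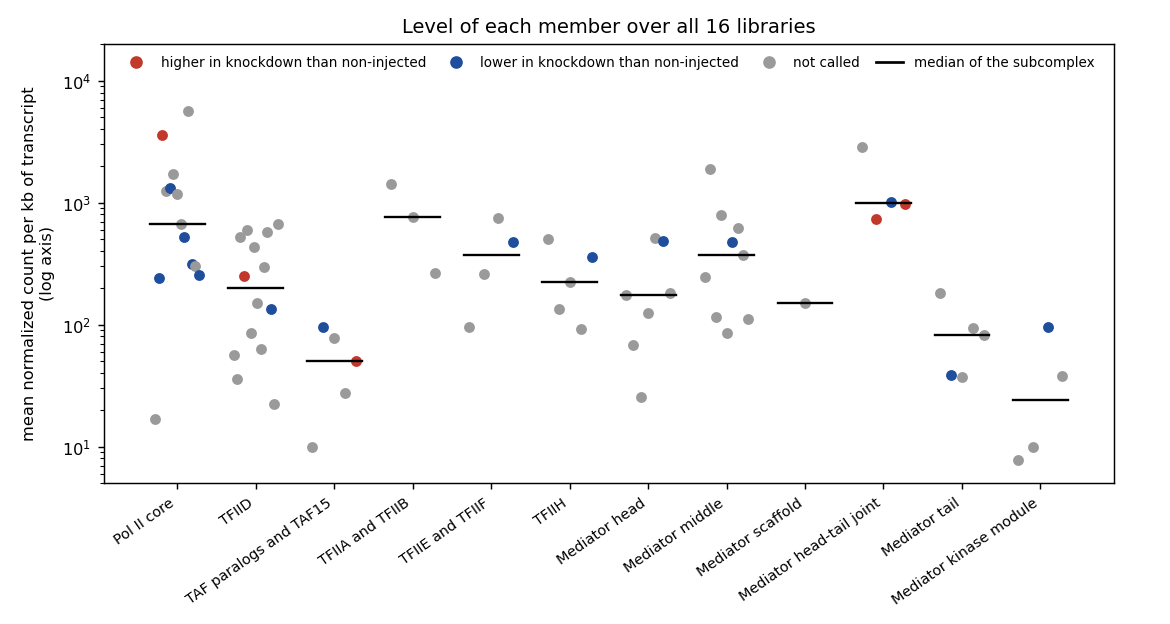
Mean normalized count per kb of principal transcript (log axis) for each of the 74 genes, by subcomplex, with the median of each as a line; colours show the call in knockdown over non-injected. Polr2a at 16.7 lies far below the other polymerase subunits, whose median with it is 663.5, and the Mediator kinase module has the lowest median, 23.9.

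Close relatives were both present in the libraries. Tbpl2 stood at 50.2 counts per kb and Tbp at 663.2, a ratio of 0.0757, which was 0.497 with the union of all annotated exons as the length, an alternative chosen after seeing the data. Taf7l, a TAF7 relative of germ cells, stood at 27.7 counts per kb and Taf7 at 579.7. Med13l stood at 37.8 and Med13 at 95.3, and Med12l at 10.02 and Med12 at 7.82 counts per kb. The order within each of these pairs was kept with the union of exons as the length.

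Between knockdown and LacZ control, both injected, Med31 alone of the 74 genes passed the test, and it was lower in knockdown. Med31, a small subunit of the Mediator middle (ENSMUSG00000020801.8, chromosome 11, 72211724 to 72215592 on the minus strand of GRCm38), was at -0.73 ± 0.20 (log2) in the authors' deposited table, a 1.66-fold fall (adjusted p = 0.0410). That is 1 of 74 genes lower (1.35%) and 0 higher by DESeq2, where 0.533% of all 15572 genes tested passed in the lower and 0.366% in the higher direction. At an unadjusted p under 0.05, 13 of the 74 were lower (17.6%) and 0 were higher, against 8.07% and 6.6% of all genes tested. Over both directions the background was 0.899% at the adjusted and 14.7% at the unadjusted threshold. The median log2 fold change of the 74 was -0.14, against 0.02 over all genes tested, and 46 of the 74 (62.2%) had a negative value, against 48.4% of all genes. Among genes with a mean count of 100 or more, the median was -0.16 over members and -0.08 over all genes, and 1.47% of members and 0.958% of all genes were called lower. Of the same genes, 13 of 68 members (19.1%) and 13.8% of all 7722 genes were lower at that unadjusted p, and 0% of members and 5.63% of all genes were higher. The Med31 call was lost when adjusted over every deposited p-value (adjusted p = 0.0630). Its exons overlap those of the noncoding gene 4930563E22Rik on the opposite strand over 26.3% of their length, and the protocol does not record the strand.

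Next to the threshold stood Polr2k, a small zinc-binding subunit shared by polymerases I, II and III, at -0.90 ± 0.27 in the authors' deposited table, with an adjusted p of 0.0616. Med29 followed at -0.65 ± 0.19 (adjusted p = 0.0650) and Taf7, which holds back the TAF1 subunit of TFIID, at -0.58 ± 0.19 (adjusted p = 0.0985) in the authors' deposited table. With adjustment over the genes of mean count 100 or more, Polr2k was called as well. In the other subcomplexes the smallest p-values belonged to Gtf2f2 at -0.74 ± 0.27, Gtf2h5 at -0.59 ± 0.24, Med11 at -0.78 ± 0.30, Med13 at -0.52 ± 0.23, Med14 at -0.32 ± 0.21, Med16 at -0.50 ± 0.32 and Taf15 at -0.38 ± 0.34, none of them called in the authors' deposited table.

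Polymerase subunits lay below 0 in 11 of 13 cases in knockdown over LacZ control, with a median of -0.27 and 0 calls by DESeq2, 3 of them lower at an unadjusted p under 0.05. The 4 subunits of TFIIE and TFIIF were all negative, from -0.74 to -0.16, and the Mediator middle had a median of -0.36. TFIIA and TFIIB stood at 0: Gtf2a1, Gtf2a2 and Gtf2b had log2 fold changes of -0.00, 0.03 and -0.02 in the authors' deposited table, with 95% intervals that reached from -0.43 to 0.46. The Mediator tail, which meets activators, had a positive median of 0.31 with 4 of 5 subunits above 0 and none called. Among those above 0, Med25 stood at 0.03 ± 0.30, and its test statistic had the opposite sign (-0.015). Polr2a was at 0.18 ± 0.29 (95% interval -0.40 to 0.76), Med1 at 0.07 ± 0.16 (-0.24 to 0.39) and Tbpl2 at 0.06 ± 0.31 (-0.54 to 0.66) in the authors' deposited table, and changes up to those bounds are within the error for these genes.

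Against non-injected embryos, 19 of the 74 genes differed in knockdown, 14 lower and 5 higher. These groups differ both in injection and in the Suv39h2 message, which cannot be told apart in this comparison. Of the 19, Med31 alone was also called against the injected LacZ control. The 14 lower genes are 18.9% of the 74, against 7.76% of all 14948 genes tested, and the 5 higher are 6.76%, against 7.41% of all genes. Over both directions the background was 15.2%. At an unadjusted p under 0.05, 26 of the 74 were lower (35.1%) and 11 higher (14.9%), against 14.4% and 14.6% of all genes and 29% in either direction. The median log2 fold change of the 74 was -0.22, against 0.05 over all genes tested. Among genes with a mean count of 100 or more, the median was -0.26 over members and -0.08 over all genes, the share lower was 20.6% of 68 members and 13.5% of 7722 genes, and the share higher was 5.88% and 9.01%. For knockdown over non-injected, the plot of shares shows the members above all genes tested on the lower side and near them on the higher side. Of 6 oocyte markers, Bmp15, Gdf9 and Oosp1 were called higher in knockdown than in non-injected embryos, as were Tcstv3, Tdpoz4 and Zscan4c of 6 markers of the 2-cell stage. Of these markers, Tcstv3 was also called higher in LacZ control over non-injected. At an unadjusted p under 0.05 by DESeq2, 4 of 6 markers of the 2-cell stage and 2 of 6 oocyte markers were higher there. In knockdown over LacZ control, 0 of the 12 were called by DESeq2 or passed an unadjusted p under 0.05. Their part in the result was not tested. The values rest on normalized counts of whole embryos, so neither cell number nor total RNA per embryo can be read from them.

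**Figure D2:**
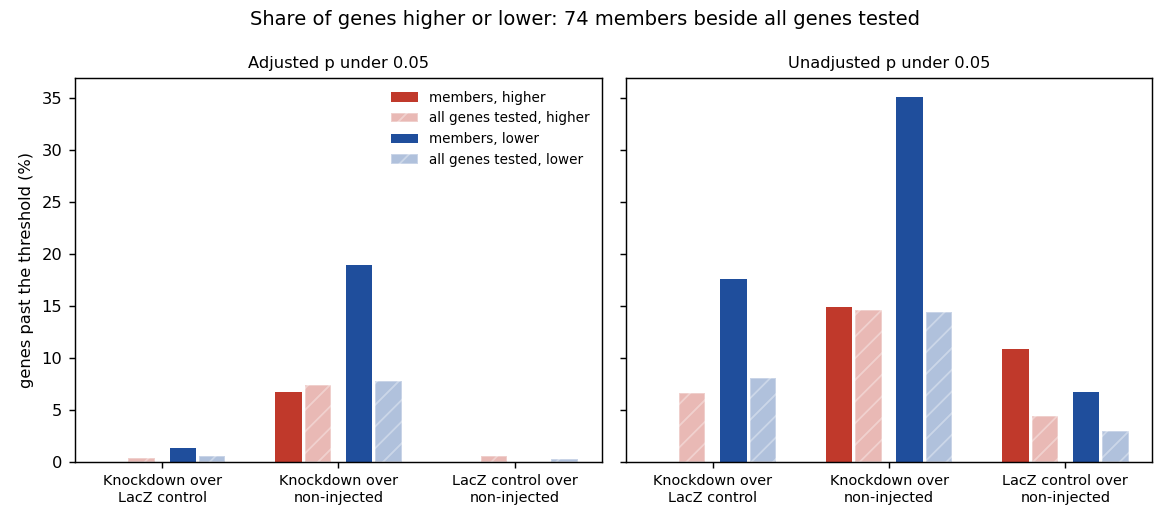
Percent of genes past an adjusted p (left) or an unadjusted p (right) of 0.05, in each of the 3 comparisons, for the 74 members (solid) beside all genes tested (hatched). In knockdown over non-injected, 18.9% of members and 7.76% of all genes were lower at the adjusted threshold. In LacZ control over non-injected, 0% of members and 0.792% of all genes were called.

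Of the 13 polymerase subunits, 5 fell in knockdown against non-injected embryos and 1 rose. These are 38.5% and 7.69%, against 7.76% lower and 7.41% higher of all genes tested. Of all genes with a mean count of 100 or more, 13.5% were lower and 9.01% higher. Polr2k fell by 0.88 ± 0.29 (log2) in the authors' deposited table, with an adjusted p of 0.0214. Polr2i, the RPB9 subunit that helps the enzyme to read accurately, fell by 0.66 ± 0.24 and Polr2e, shared by polymerases I, II and III, by 0.66 ± 0.19 (adjusted p = 0.0476 and 0.00847) in the authors' deposited table. Polr2b, the second largest subunit and part of the active centre, fell by 0.61 ± 0.18 (adjusted p = 0.00996), and Polr2m, which makes the polymerase depend on Mediator, by 0.64 ± 0.24 (adjusted p = 0.0472) in the authors' deposited table. Polr2c, an assembly subunit, rose by 0.45 ± 0.17 in the authors' deposited table, with an adjusted p of 0.0423. The largest subunit gene, Polr2a, stood at -0.12 ± 0.31 (95% interval -0.72 to 0.48) in the authors' deposited table and was not called.

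The calls of Polr2c, Polr2i and Polr2m were lost when adjusted over every deposited p-value, and that of Polr2c also with fold changes centred on the protein-coding median (adjusted p = 0.0645). Exons of Polr2i overlap those of Tbcb over 26.8% of their length, those of Polr2c overlap Dok4 over 18.1% and those of Polr2b overlap Igfbp7 over 1.82%, all on the opposite strand. Reads of these overlaps cannot be assigned without strand.

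The largest fall of all 74 genes was that of a general factor, Gtf2f2, the small subunit of TFIIF (ENSMUSG00000067995.4, chromosome 14, 75896937 to 76010865 on the minus strand of GRCm38). It fell by 1.21 ± 0.28 in knockdown over non-injected in the authors' deposited table, a 2.31-fold difference (adjusted p = 0.00142). Its partner Gtf2f1 was at -0.44 ± 0.19 in the authors' deposited table and was not called (adjusted p = 0.107). Gtf2h5, the smallest subunit of TFIIH, fell by 0.87 ± 0.25 in the authors' deposited table, with an adjusted p of 0.0104, and the other 4 Gtf2h genes had values from -0.74 to -0.02 and were not called. Gtf2h1 stood at -0.44 and Gtf2e1, the large subunit of TFIIE, at -0.29 in the authors' deposited table. TFIIA and TFIIB genes were all positive, from 0.22 to 0.46, with 0 of 3 called by DESeq2 and 1, Gtf2a2, higher at an unadjusted p under 0.05.

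Of the 14 TFIID genes 1 rose and 1 fell (7.14% each), against 7.41% and 7.76% of all genes tested, and their median was -0.18. Taf8, needed for TFIID assembly, fell by 0.68 ± 0.23 (adjusted p = 0.0259), and Taf12, a histone-fold subunit shared with the SAGA coactivator, rose by 0.59 ± 0.22 (adjusted p = 0.0481) in the authors' deposited table; both calls were lost when adjusted over every deposited p-value, and that of Taf12 also with centring (adjusted p = 0.0662). Taf3, which binds methylated lysine 4 of histone H3, lay just outside the threshold at 0.48 ± 0.18 in the authors' deposited table, with an adjusted p of 0.0504. Tbp stood at -0.69 ± 0.27 (adjusted p = 0.0638) and Taf1, the largest TAF, at -0.61 ± 0.30 (adjusted p = 0.129) in the authors' deposited table. Taf4 was at -0.00 ± 0.23, Taf7 at -0.51 ± 0.21 and Taf7l at 0.07 ± 0.40 there, none of them called. The test statistic of Taf7l had the opposite sign (-0.61). With adjustment over the genes of mean count 100 or more, Tbp and Taf7 were called lower and Taf3 higher. Tbp exons overlap those of Pdcd2 on the opposite strand over 19.0% of their length, and Taf9 shares 73.8% of its exon length with Ak6 on its own strand, so Taf9 counts are uncertain.

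Among the general factors and their relatives the largest rise was that of Tbpl2. Tbpl2 (ENSMUSG00000061809.8, chromosome 2, 24071721 to 24096595 on the minus strand of GRCm38) rose by 1.05 ± 0.32 in knockdown over non-injected in the authors' deposited table, a 2.07-fold difference (adjusted p = 0.0111). Its mean count over all libraries was 69.2, so it drops out under a mean count of 100. Taf5l, a relative of Taf5 that belongs to SAGA, fell by 0.93 ± 0.26 in the authors' deposited table, with an adjusted p of 0.00508. Taf6l, its partner in SAGA, was at -0.33 ± 0.31, and Taf15 at -0.03 ± 0.36 in the authors' deposited table, neither called.

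**Figure D3:**
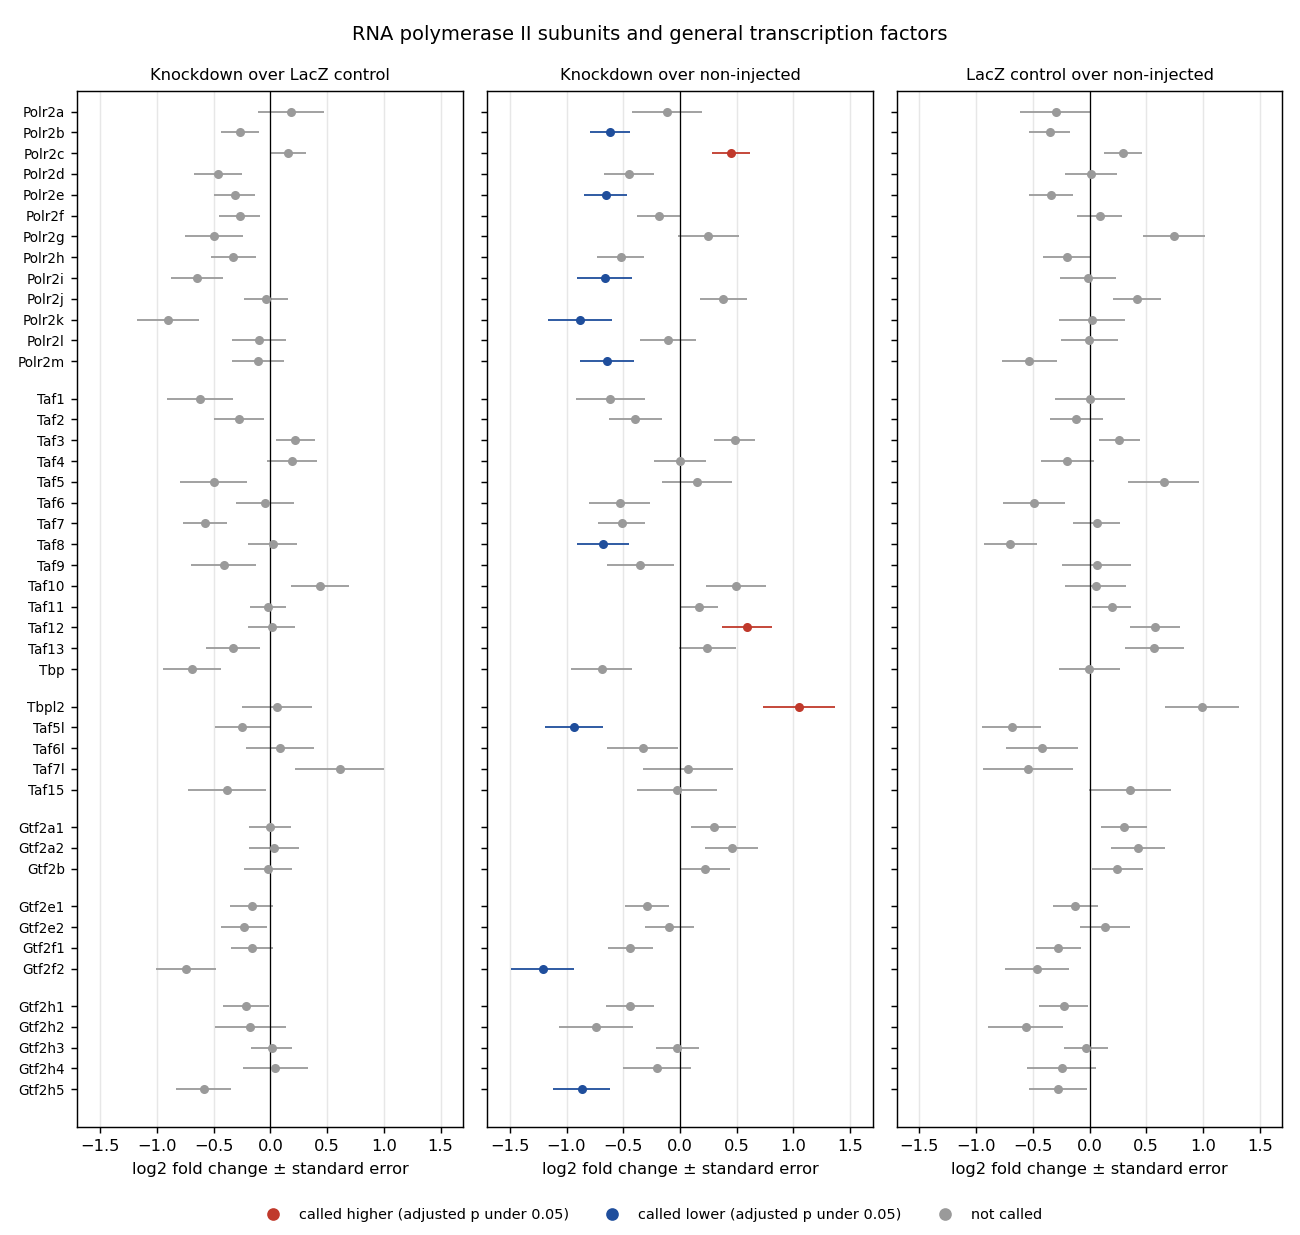
Log2 fold change (point) and standard error (bar) of each polymerase II subunit and general factor in knockdown over LacZ control, knockdown over non-injected and LacZ control over non-injected, from the authors' deposited tables; groups of rows are subcomplexes. In the middle panel Gtf2f2 at -1.21 and Tbpl2 at 1.05 lie at the ends, and no gene of these groups is called in the outer panels.

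In Mediator, 5 of 30 genes fell in knockdown against non-injected embryos and 2 rose. These are 16.7% and 6.67%, against 7.76% lower and 7.41% higher of all genes tested. Of all genes with a mean count of 100 or more, 13.5% were lower and 9.01% higher. Of the 4 genes of the joint between head and tail, 2 rose and 1 fell. Med30 (ENSMUSG00000038622.7, chromosome 15, 52712408 to 52730564 on the plus strand of GRCm38) had the largest rise of the 74 genes, 1.12 ± 0.26 in the authors' deposited table, with an adjusted p of 0.00119, a 2.18-fold difference. Med28 rose by 0.54 ± 0.17 (adjusted p = 0.0206), and Med27 stood at 0.43 ± 0.19 without a call (adjusted p = 0.106) in the authors' deposited table. Med29 fell by 0.78 ± 0.21 in the authors' deposited table, with an adjusted p of 0.00416, and 4.996% of its exon length overlaps the antisense gene Gm44710.

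The other Mediator calls were 1 each in the head, the middle, the tail and the kinase module, all lower. These are 14.3%, 11.1%, 20% and 25% of the genes of each, against 7.76% of all genes tested. Med6, a head subunit that meets the polymerase, fell by 0.70 ± 0.21 (adjusted p = 0.0142) and Med31 of the middle by 0.62 ± 0.21 (adjusted p = 0.0300) in the authors' deposited table. Med16 of the tail fell by 0.93 ± 0.33 (adjusted p = 0.0227) and Med13, which ties the kinase module to the core, by 0.90 ± 0.24 (adjusted p = 0.00449) in the authors' deposited table. Exons of Med13 overlap those of the antisense gene Brip1os over 7.38% of their length. Med31 lost its call when adjusted over every deposited p-value (adjusted p = 0.0607). Med14, the scaffold that joins head, middle and tail, stood at -0.54 ± 0.22 (adjusted p = 0.0791) in the authors' deposited table, and Med17, the core of the head, at -0.54 ± 0.28 (adjusted p = 0.219).

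Med26, which recruits elongation factors, was at -0.45 ± 0.32 in the authors' deposited table, Med12 at -0.60 ± 0.34, Med12l at 0.55 ± 0.23 and Med13l at -0.17 ± 0.24. None of these was called. Med1, a docking subunit for nuclear receptors, stood at -0.07 ± 0.17 (95% interval -0.41 to 0.26) in the authors' deposited table.

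**Figure D4:**
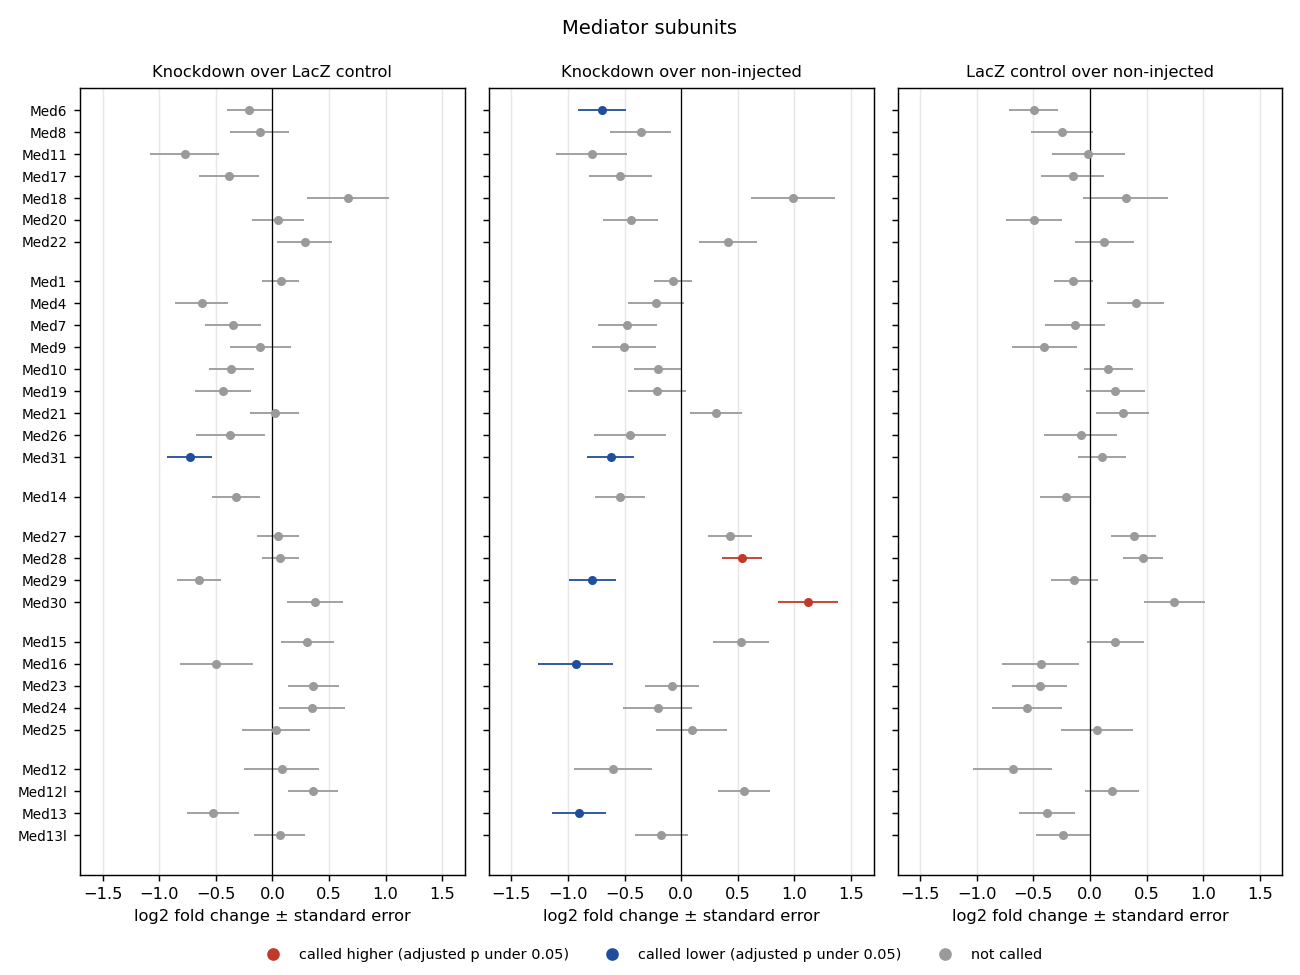
Log2 fold change (point) and standard error (bar) of the 30 Mediator genes in the 3 comparisons, from the authors' deposited tables, grouped from top to bottom as head, middle, scaffold (Med14), joint of head and tail, tail and kinase module. Med30 at 1.12 and Med28 at 0.54 are called higher and Med29 at -0.78 lower in knockdown over non-injected, and Med31 is the single call in knockdown over LacZ control.

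LacZ control and non-injected embryos gave no call among the 74 genes by DESeq2, where 0.529% of 29288 genes were called higher and 0.263% lower (0.792% in all). At an unadjusted p under 0.05, 8 of the 74 were higher (10.8%) and 5 lower (6.76%), against 4.43% and 2.96% of all genes (7.39% in all), and the median log2 fold change was -0.01. Among genes with a mean count of 100 or more, 10.3% of members and 8.64% of all genes were higher, and 7.35% and 6.02% were lower, at that unadjusted p. Tbpl2 had the smallest p of the 74 at 0.99 ± 0.33 (unadjusted p = 0.00225, adjusted p = 0.166), and Taf8 followed at -0.70 ± 0.23 (unadjusted p = 0.00260, adjusted p = 0.185) in the authors' deposited table.

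Since knockdown and LacZ control are both set against the same 4 non-injected libraries, values of single genes were read side by side. In each of the 74 genes, knockdown over non-injected was the sum of knockdown over LacZ control and LacZ control over non-injected, within 4.99e-10. The direct differences given here therefore follow from the other values and are no independent reading. Tbpl2 was at 1.05 ± 0.32 in knockdown and 0.99 ± 0.33 in LacZ control over non-injected, and the direct difference of knockdown over LacZ control was 0.06 ± 0.31 in the authors' deposited table. Taf8 was at -0.68 ± 0.23 in knockdown and -0.70 ± 0.23 in LacZ control over non-injected, with a direct difference of 0.02 ± 0.22 in the authors' deposited table. Taf12 stood at 0.59 ± 0.22 and 0.58 ± 0.22 in the same order, with 0.01 ± 0.21 between them in the authors' deposited table. For these 3 genes the values in both injected groups were nearly equal, and the LacZ control values were not called.

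Polr2k, Polr2i, Med31 and Tbp, of which Tbp was not called in knockdown over non-injected, had values near 0 in LacZ control over non-injected. Polr2k was at -0.88 ± 0.29 in knockdown and 0.02 ± 0.29 in LacZ control over non-injected in the authors' deposited table, and Polr2i was at -0.66 ± 0.24 and -0.02 ± 0.24. Med31 was at -0.62 ± 0.21 and 0.11 ± 0.21, and Tbp at -0.69 ± 0.27 and -0.00 ± 0.27, in the authors' deposited table. The direct differences of knockdown over LacZ control were -0.90 for Polr2k, -0.65 for Polr2i, -0.73 for Med31 and -0.69 for Tbp, of which the test called that of Med31. Gtf2f2 lay between, at -1.21 ± 0.28 in knockdown and -0.47 ± 0.28 in LacZ control over non-injected in the authors' deposited table. So did other called genes. In that order, Med30 was at 1.12 ± 0.26 and 0.75 ± 0.27, and Taf5l at -0.93 ± 0.26 and -0.68 ± 0.26. Polr2b was at -0.61 ± 0.18 and -0.35 ± 0.18 in the authors' deposited table. Of the genes called in knockdown over non-injected, Polr2k and Med31 alone had opposite signs in LacZ control over non-injected.

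The wider machinery of polymerase II, 76 genes in 8 lists, was read in the same way. Against non-injected embryos 15 of the 76 were lower in knockdown (19.7%) and 2 higher (2.63%), against 7.76% and 7.41% of all genes tested and 13.5% and 9.01% of those with a mean count of 100 or more. Their median was -0.39, against 0.05 over all genes tested. Against LacZ control 0 were called by DESeq2, and at an unadjusted p under 0.05 the lower genes numbered 20 of 76 and the higher 1, with a median of -0.24. Of all genes, 8.07% were lower and 6.6% higher at that threshold, and of those with a mean count of 100 or more 13.8% and 5.63%. In LacZ control over non-injected 0 were called by DESeq2 and, unadjusted, 1 was higher and 0 lower.

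Of the 18 pausing and elongation factors, the longest of the lists, 5 were lower in knockdown than in non-injected embryos and none higher. In this comparison 7.76% of all genes tested were lower and 7.41% higher. Of those with a mean count of 100 or more, 13.5% were lower and 9.01% higher. Ell2, a factor that speeds up the polymerase, fell by 1.297 ± 0.27 in the authors' deposited table, with an adjusted p of 0.000271, and Supt5, which holds and then drives the polymerase after pausing, by 0.97 ± 0.28 (adjusted p = 0.00878). Nelfe, a subunit of the pausing factor NELF, fell by 0.90 ± 0.28 in the authors' deposited table, with an adjusted p of 0.0247. Of 16 SAGA genes 3 were lower, among them the acetyltransferase Kat2b at -1.03 ± 0.34 in the authors' deposited table, with an adjusted p of 0.0120. Of 13 genes for polymerase assembly and tail phosphatases 3 were lower, with Rprd1b at -0.92 ± 0.24 in the authors' deposited table, with an adjusted p of 0.00336, and 1 was higher.

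The list of TBP and TAF relatives and TBP regulators had 2 lower genes and 1 higher gene of 7, and the lower ones were Taf4b and Dr1, a repressor that binds TBP. Taf4b, the TAF4 relative of the germ line, fell by 0.92 ± 0.28 in knockdown over non-injected in the authors' deposited table, with an adjusted p of 0.0118, while Taf9b, a relative of Taf9, rose by 0.85 ± 0.22 there (adjusted p = 0.00384). Of P-TEFb, the kinase that releases paused polymerase, and its inhibitors, 1 of 8 was lower, and of the PAF complex 1 of 6 was lower. In knockdown over non-injected, 7.76% of all genes tested and 13.5% of those with a mean count of 100 or more were lower. Of the other TFIIH subunits 0 of 5, and of the Mediator kinase 0 of 3, were called by DESeq2, with 3 and 2 lower at an unadjusted p under 0.05.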

How the data were processed

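Polyadenylated RNA of 16 libraries was sequenced with Smart-seq2, per the labels. The submitters' processing notes name STAR 2.5.2b, SAMtools, HTSeq 0.9.1, DESeq2 1.18.1 and the build GRCm38.p5. That RUVSeq and shrunken fold changes were used is known from the authors' table names, and the annotation release was not given in the sources used here. In each deposited table the file headers give a mean normalized count (a signal), the log2 fold change, its standard error, the test statistic (a score), the p-value, and this value after adjustment. No column of single libraries was present (0), so no refit was made.

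From these tables, members were picked by symbol through GENCODE vM21, which named 49326 of 49585 identifiers. A call is an adjusted p under 0.05. Intervals are the fold change ± 1.96 standard errors, on shrunken values. A shrunken value near 0 can differ in sign from its test statistic. This was so for Med25 and Med12 in knockdown over LacZ control and for Taf7l in knockdown over non-injected. Levels per kb divide the mean count by the median length of the protein-coding transcripts with the best APPRIS rank. Adjustment by Benjamini and Hochberg's method was tested on simulated data. Alternatives were adjustment over every p-value, thresholds of 0.10 and 0.01, a mean count of 100, centring, and leaving out genes with overlapping exons. The members and lists were chosen with earlier results of these data known. Genes named are all called members, a fixed selection of subunits, the smallest p of each subcomplex, and genes beside the threshold; pandas 2.3.3 and numpy 2.4.6 were used.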

Additional observations from a re-analysis of the deposited data

How the results depend on the processing

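No paired analysis was possible because the tables hold no values of single libraries, and leaving out a replicate could not be run for the same reason. In knockdown over LacZ control, the 1 lower member became 0 with adjustment over every deposited p-value, 4 at an adjusted p under 0.10, 0 at 0.01, 2 at a mean count of 100 or more and 0 without genes whose exons overlap another gene. In knockdown over non-injected, the 5 higher members became 3 with adjustment over every p-value, 8 at 0.10, 1 at 0.01 and 3 with centring, and the 14 lower became 6 at 0.01 and 9 of 43 without overlapping genes. Centring moved the split of calls to 16 lower and 3 higher. The other alternatives gave 10 to 18 lower members. In LacZ control over non-injected, 0 members were called by DESeq2 under each alternative, while 8 were higher and 5 lower at an unadjusted p under 0.05. The medians of the 74 genes kept their sign with the mean count minimum, centring and without overlapping genes, from -0.14 to -0.17 in knockdown over LacZ control and from -0.22 to -0.29 in knockdown over non-injected. Depth per library is unknown, and shrinkage understates changes of genes with low counts. The cause of these shifts was not tested, apart from the smaller number of genes where genes were left out.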
